A study of Mus musculus with 8 samples.

Results

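The Hist1 cluster is the largest group of histone genes in the mouse genome. Its members were taken as all protein-coding genes of chromosome 13 whose name starts with Hist1h in the GENCODE vM1 annotation of mm9, which gave 55 of the 22380 protein-coding genes. All of them lie within 2.22 Mb except Hist1h2al, which is at chr13:51298057-51298434. A gene region ran from 1 kb upstream of the start site to the gene end, and the remaining CpGs of the 2.22 Mb were counted as lying between the genes. Of 757812 CpGs listed in the files, 512 belonged to the cluster, 187 of them in gene regions and 325 between the genes.

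The cells were neural precursor cells (NPCs) made from the mouse ES line A2lox.cre, in which doxycycline switches on an integrated shRNA. In the controls (shScr) the shRNA has no target, and in the other group (shTet3) it targets *Tet3*. TET3 is one of the dioxygenases that turn 5mC into 5hmC, and the comparison asks which CpGs differ in 5mC when it is depleted. Both groups received doxycycline at 2 µg/ml for 5 days, and each had 2 replicates. For each shRNA and replicate number there was a BS library, in which 5mC and 5hmC are read as C. There was also an oxBS library, in which 5hmC is oxidised first and 5mC alone still reads as C, so that 8 libraries were analysed. Same-numbered BS and oxBS libraries were taken to come from the same DNA, which the labels do not state. The files hold DNA methylation alone, so *Tet3* RNA could not be checked here, and the labels do not say whether the 2 replicates of an shRNA came from separate differentiations or clones. The methods describe expanded ES cell clones, so a difference between clones cannot be told apart from one between shRNAs. A permutation p then measures only the spread between these samples, which may be technical. The *q* values come from calls pooled within a group and reflect counting error, not the spread between replicates.

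The canonical, replication-dependent histone genes are short, have no introns as a rule, and are transcribed in S phase to package new DNA. Their mRNAs end in a stem-loop in place of a poly(A) tail. The cluster also holds genes that belong to the male germ line. Hist1h1t encodes the testis linker histone H1t, and the neighbouring, divergently transcribed Hist1h2aa and Hist1h2ba encode the testis variants TH2A and TH2B, which replace their canonical partners during spermatogenesis.

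The results turn on 3 kinds of sequence, which are shown here from the mm9 genome in the direction of transcription, with every CpG in capitals. The first pair is a coding stretch of 67 bases that Hist1h2ba (chr13:24025744-24025810, minus strand) shares with the canonical Hist1h2bf (chr13:23665781-23665847, minus strand), and it is shown because the same CpGs were heavily methylated in one gene and sparsely methylated in the other. The next is the coding stretch of Hist1h2aa (chr13:24026425-24026547, plus strand) with its 8 listed CpGs. Each of the 8 had a lower mean in shTet3, and 4 passed the thresholds for a call given below. The last 2 are a nearly unmethylated coding stretch of Hist1h4i (chr13:22133072-22133185, minus strand) and a nearly unmethylated stretch just upstream of Hist1h4c (chr13:23790343-23790415, minus strand).
Hist1h2ba: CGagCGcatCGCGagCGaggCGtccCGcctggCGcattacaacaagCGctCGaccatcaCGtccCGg
Hist1h2bf: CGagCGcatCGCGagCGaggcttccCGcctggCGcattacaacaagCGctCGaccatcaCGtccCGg
Hist1h2aa: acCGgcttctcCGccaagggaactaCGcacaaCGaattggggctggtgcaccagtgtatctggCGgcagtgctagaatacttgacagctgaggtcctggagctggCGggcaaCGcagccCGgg
Hist1h4i: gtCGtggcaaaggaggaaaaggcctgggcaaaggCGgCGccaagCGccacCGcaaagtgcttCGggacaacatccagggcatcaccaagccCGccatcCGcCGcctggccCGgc
Hist1h4c: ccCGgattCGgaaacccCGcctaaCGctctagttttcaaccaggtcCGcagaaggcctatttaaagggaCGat

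Over all chromosomes, the 8 libraries held between 42516767 and 61865967 methylation calls, and the cluster held between 24332 and 35638 of these, with a median coverage per CpG of 40 to 50. A CpG covered by fewer than 10 calls in any of the 4 libraries of a comparison was not tested, which left 433 of the 512 CpGs for the oxBS comparison, 157 in gene regions and 276 between the genes. The mean 5mC level over all 662455 tested CpGs of the series was 27.2% and 32.3% in shScr replicates 1 and 2, and 22.7% and 22.9% in shTet3 replicates 1 and 2. Thus shScr replicate 2 was the highest library, and the main results are also given without it. Confidence intervals (95%, Wilson) cover counting error only, since PCR copies are not independent molecules.

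Only part of the gene family could be read. Listed CpGs were present in 17 of the 55 gene regions, and 15 had at least 1 tested CpG. These were 5 of 6 H1 genes, 2 of 14 H2A genes, 4 of 15 H2B genes, 1 of 9 H3 genes and 3 of 11 H4 genes. Hist1h3e and Hist1h4a had 6 and 10 listed CpGs, all too thinly covered, and 38 genes, Hist1h1t and Hist1h2al among them, had none. The enzyme used to prepare the libraries, MspI, cuts at CCGG, and the 38 genes held a median of 8 such sites per region against 7 in the 15 tested genes.

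The sequence next to those sites was more often repeated in the genes without listed CpGs. Each MspI site gives a read from either side. Nearly all listed CpGs of chromosome 13 lay within the first 86 bases of such a read, although the methods state reads of 75 bp. Bases 76 to 86 held 3.5% of them, and 0.7% lay beyond, with 53 CpGs at base 87. After conversion of every C to T, the 86-base ends were compared with the other MspI ends of the cluster genes. An end in overlapping gene regions was counted for each gene. In the 38 genes without listed CpGs, 330 of 534 ends (61.8%) had an identical copy. In the tested genes this held for 64 of 242 (26.4%), and in the H1 genes for 6 of 84 (7.14%). Counted once each, ends with a listed CpG differed from their closest copy by a median of 9 bases, and ends without one by a median of 1 base. Whether this accounts for the missing genes was not tested.

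Replication-dependent genes were almost free of 5mC in both groups. Leaving out Hist1h2be, whose CpGs lie in an intron and are described later, 126 CpGs of 12 genes were tested. Their mean 5mC level was 2.90% and 1.39% in shScr and 1.61% and 1.31% in shTet3, and the groups overlapped (difference −0.689 points, two-sided exact permutation test, p = 0.67). The pooled calls gave 1.92% (95% interval 1.67 to 2.22), 1.17% (0.990 to 1.39), 1.69% (1.44 to 1.98) and 1.26% (1.05 to 1.51) in the same order. Of the 126 CpGs, 116 were below 10% in shScr, and 53 had no methylated call in any of the 4 libraries.

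The H1 genes encode the linker histones that bind DNA between nucleosomes. Their 84 tested CpGs averaged 0.668% and 1.18% in shScr against 1.04% and 0.360% in shTet3, and the groups overlapped. Hist1h1b, which had the most tested CpGs of the family (28), was at 1.36% and 2.48% in shScr and 1.56% and 0.384% in shTet3. Hist1h1c, with 23 tested CpGs, stayed between 0.106% and 0.557% in the 4 libraries.

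H4 and H3 form the tetramer at the centre of the nucleosome. The 11 tested CpGs of Hist1h4i, 10 of which are in the coding stretch shown above, averaged 0 and 0.561% in shScr and 0 in both shTet3 replicates. In Hist1h4c all 6 tested CpGs lay 22 to 89 bases upstream of the start site, and their mean was 2.72% and 0 in shScr and 0 and 0.641% in shTet3, each value above 0 coming from 1 CpG. The 4 CpGs of Hist1h3d, the single tested H3 gene, were at 0 in both shScr replicates and at 2.42% and 5.00% in shTet3. None of these CpGs was called, and in Hist1h3d the BS libraries gave the opposite direction, a difference of −3.17 points.

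The canonical H2B genes Hist1h2bf and Hist1h2bh held low but measurable 5mC. Hist1h2bf averaged 14.5% and 4.60% in shScr and 7.36% and 7.0% in shTet3 over 13 CpGs of its coding exon, which also fall in the region of Hist1h2ad, an H2A gene. Hist1h2bh averaged 26.2% and 2.50% in shScr against 2.38% and 4.69% in shTet3 over 4 CpGs with a median coverage of 16. In both genes shScr replicate 1 was the highest library and shScr replicate 2 was at or near the lowest, so the groups overlapped. Both genes are uncertain. The MspI read end that covers all 13 CpGs of Hist1h2bf differs from another copy in the cluster by 1 base, and the ends that cover 7 and 8 of them have an identical copy. Of the 3 ends that cover CpGs of Hist1h2bh, 2 have an identical copy and 1 differs by 6 bases.

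**Figure D1:**
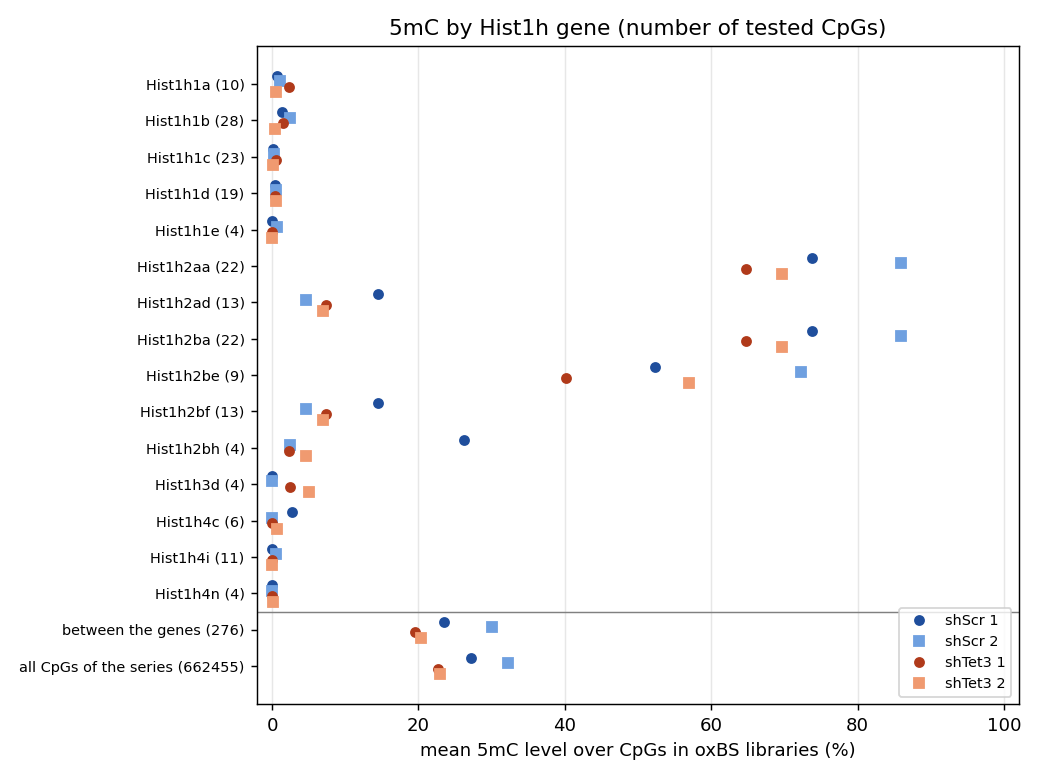
Mean 5mC level (%) of each Hist1h gene with tested CpGs in the 4 oxBS libraries (circles and squares are replicates 1 and 2, blue shScr, red shTet3), with the CpGs between the genes and all tested CpGs of the series at the bottom. Hist1h2aa and Hist1h2ba, which share 22 CpGs, sit between 64.8% and 85.9%, Hist1h2be sits between 40.2% and 72.3%, and the H1 and H4 genes sit near 0.

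The testis genes were the opposite. The regions of Hist1h2aa and Hist1h2ba hold the same 25 listed CpGs, all in the coding exons and none in the space between both start sites, so their promoter was not measured. Over the 22 tested CpGs the mean 5mC level was 73.8% and 85.9% in shScr (79.8% ± 8.58, SD, n = 2) and 64.8% and 69.7% in shTet3 (67.2% ± 3.44, SD, n = 2). Both shTet3 replicates were below both shScr replicates, by 12.6 points on average (two-sided exact permutation test, p = 0.33, the smallest p that 2 against 2 allows). The pooled calls gave 74.4% (72.0 to 76.6) and 86.8% (85 to 88.4) in shScr against 65.3% (62.8 to 67.8) and 70.9% (68.8 to 73.0) in shTet3. The difference was −4.42 points without shScr replicate 2. Even in shTet3 20 of the 22 CpGs remained above 40%, whereas none of the 126 CpGs of the replication-dependent genes was above 40% in either group.

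A CpG was called a differentially methylated position (DMP) where *q* was under 0.01 and the pooled level moved by more than 10 points, in a likelihood ratio test on the pooled calls with Benjamini-Hochberg adjustment over all tested CpGs of the series. Of the 22 CpGs of the pair, 6 (27.3%) were hypo-DMPs, that is, lower in shTet3, and none was a hyper-DMP, set against 13.9% hypo-DMPs and 0.0814% hyper-DMPs among all tested CpGs. The shTet3 values were both lower than the shScr values at 9 of the 22 CpGs (40.9%), against 26.3% of all tested CpGs. All 22 CpGs were above 40% in shScr, and among all such CpGs of the series these shares were higher, at 35.7% hypo-DMPs and 60.1% with both shTet3 values lower. The count of hypo-DMPs in the pair was 10 without shScr replicate 1 and 4 without shScr replicate 2 or shTet3 replicate 1.

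Most of the hypo-DMPs lay in Hist1h2aa. Its 8 CpGs averaged 80.0% and 84.0% in shScr and 55.7% and 68.5% in shTet3, a difference of −19.9 points with groups that did not overlap (two-sided exact permutation test, p = 0.33). It ranged from −13.5 to −26.3 points when each library was left out in turn, and 4 of the 8 CpGs were hypo-DMPs, or 2 without shTet3 replicate 1. Over all CpGs of the series above 40% in shScr, as these 8 were, the difference was −17.3 points. Measured from the mean of those CpGs, Hist1h2aa lay at 12.4 and 4.98 points in shScr and −0.049 and 12.2 points in shTet3. On this measure the groups overlapped (two-sided exact permutation test, p = 0.67). The CpG at chr13:24026488 read 70% and 74.1% with shScr and 43.5% and 43.9% with shTet3, at coverages of 85 to 115 (*q* = 5.71e-07). At chr13:24026436 the level was 100% and 95.7% with shScr and 64.3% and 76.9% with shTet3 (*q* = 7.05e-07). The groups did not overlap at either position, and both were called with any 1 library left out. In the matching BS libraries they did overlap, with 59.1% and 77.2% against 51.9% and 59.2% at chr13:24026488, which was not called there (*q* = 0.0196), and with 85.4% and 94.9% against 53.3% and 93.6% at chr13:24026436.

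The other hypo-DMPs of Hist1h2aa were less uniform. At chr13:24026544 the level was 70.7% and 95.2% in shScr against 58.8% and 65.3% in shTet3 (*q* = 0.00936), and at chr13:24026457 it was 83.7% and 52.2% against 27.4% and 50% (*q* = 0.000197). The second of these rests on shScr replicate 1 and shTet3 replicate 1, since the 2 remaining libraries were nearly equal.

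In Hist1h2ba the groups met. Its 14 tested CpGs averaged 70.2% and 87% in shScr against 70% and 70.3% in shTet3, and shScr replicate 1 lay between both shTet3 replicates (difference −8.42 points, two-sided exact permutation test, p = 0.67). Without shScr replicate 2 the difference turned to 2.33 points and no CpG was called, and without shScr replicate 1 it was −16.8 points with 6 hypo-DMPs. The 2 hypo-DMPs were at chr13:24025863, with 78.7% and 90.6% in shScr against 52.8% and 52.5% in shTet3 (*q* = 7.95e-06), and at chr13:24025745, with 91.8% and 98.2% against 75.6% and 75.8% (*q* = 0.000325). The difference between the 2 exons was itself not tested.

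**Figure D2:**
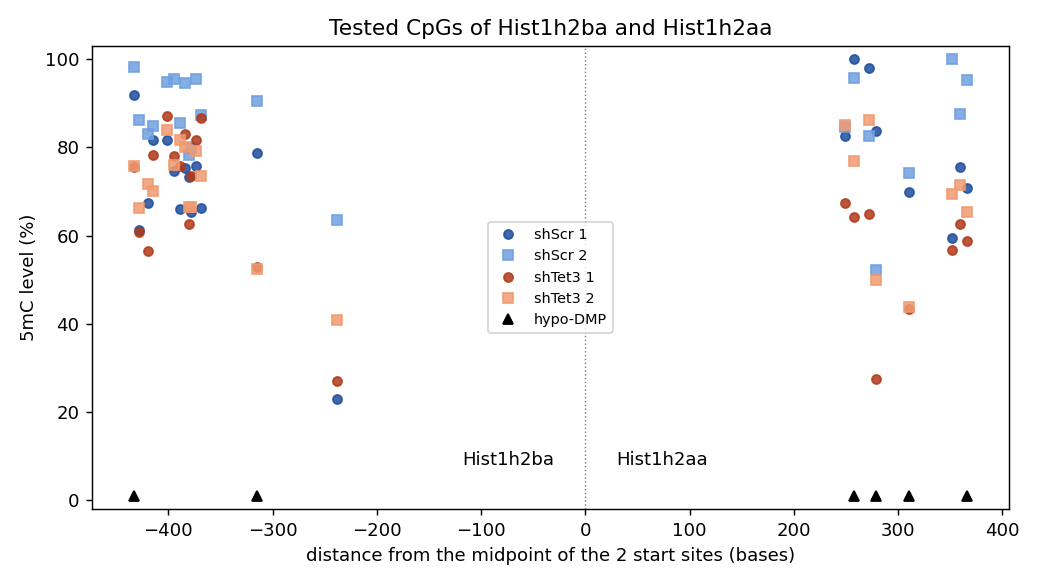
5mC level (%) of the 22 tested CpGs of Hist1h2ba (left) and Hist1h2aa (right) in the 4 oxBS libraries, by distance in bases from the midpoint of both start sites. Black triangles mark the 6 hypo-DMPs, 4 of them in Hist1h2aa, and no CpG between the start sites was listed.

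The coding stretch printed at the start gave a direct comparison of a testis and a canonical H2B gene, chosen after their values were seen. It is identical between Hist1h2ba and Hist1h2bf at 66 of 67 bases (98.5%), and the single difference, G22T counted from the 5′ end of the stretch with the base of Hist1h2ba first, removes 1 CpG from Hist1h2bf. At the 11 shared CpGs, Hist1h2ba averaged 74.0% and 88.9% in shScr against 74.9% and 73.6% in shTet3. The same positions of Hist1h2bf averaged 15.9% and 5.05% in shScr and 8.16% and 7.88% in shTet3.

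Hist1h2ba was thus above Hist1h2bf by 58.1 and 83.8 points in shScr and by 66.7 and 65.7 points in shTet3, and at 11 of 11 CpGs in each of the 4 libraries. The BS libraries gave differences of 58.5, 81.5, 66.5 and 65.1 points in the same order. The gap was therefore present in each library of both groups. The MspI read end that begins in this stretch of Hist1h2ba differs from its closest copy in the cluster by 4 bases, but another end, which covers 8 of the listed CpGs of Hist1h2ba, has an identical copy. The matching end of Hist1h2bf differs by 1 base and its ends over 7 and 8 CpGs have an identical copy, so that reads of other H2B copies may be counted at either gene.

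**Figure D3:**
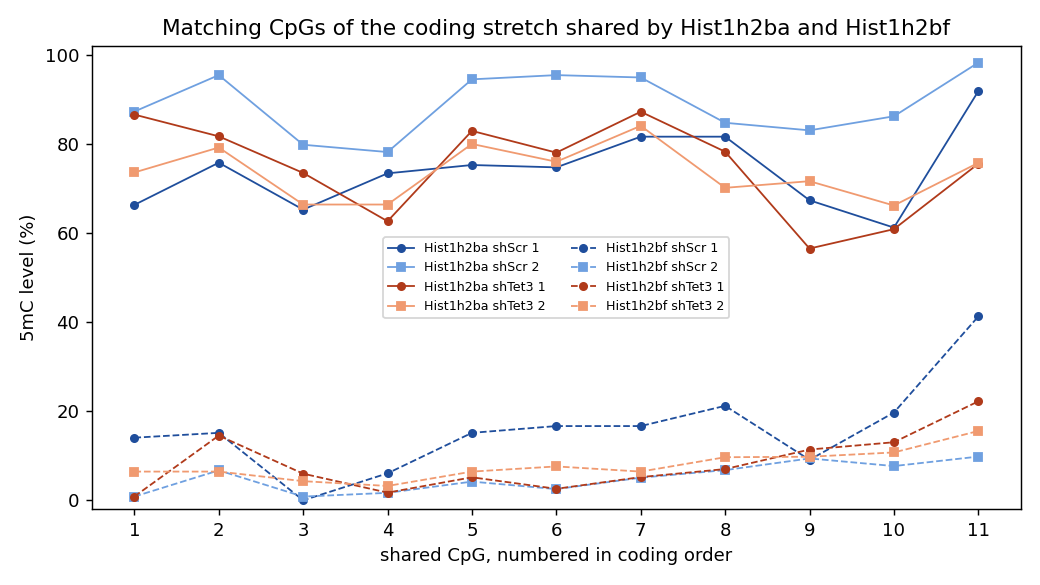
5mC level (%) at the 11 CpGs shared by the near-identical coding stretch of Hist1h2ba (solid lines) and Hist1h2bf (dashed lines), in coding order, for the 4 oxBS libraries. The Hist1h2ba values lie between 56.5% and 98.2% and the Hist1h2bf values between 0 and 41.3%, and in each library each CpG is higher in Hist1h2ba.

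Hist1h2be was the one canonical gene with high 5mC, measured outside its coding exon. The annotation gives it a transcript of chr13:23675611-23712993 on the minus strand, and its 9 tested CpGs all lie in an intron of that transcript. Their mean was 52.4% and 72.3% in shScr against 40.2% and 56.9% in shTet3, a difference of −13.8 points with groups that overlapped (two-sided exact permutation test, p = 0.67). There were 3 hypo-DMPs, at chr13:23683272, chr13:23683338 and chr13:23684268, of which 1 was called without shScr replicate 2. The mean difference was −3.83 points without that library and −5.43 points without shTet3 replicate 1, and −23.8 and −22.2 points without the other replicate of each group. At chr13:23683338, 69.4% and 86% in shScr stood against 51.2% and 52.7% in shTet3. At chr13:23683272 shScr replicate 1 (26.8%) lay below both shTet3 replicates (40.4% and 32.6%), and at chr13:23684268 shTet3 replicate 2 (88%) lay above both shScr replicates (84.6% and 72.4%).

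Hist1h1b held the only hypo-DMP of the remaining replication-dependent genes. It lies in the coding exon at chr13:21872054, where 26.7% of 30 calls were methylated in shScr replicate 2 and none in the other 3 oxBS libraries (*q* = 0.00310). The call therefore rests on 1 library, and in the BS libraries the level was 0 and 4.55% in shScr and 0 and 4.35% in shTet3.

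In all, 10 of 157 CpGs in gene regions (6.37%) were hypo-DMPs, which is below the 13.9% of the series. The mean level of the gene regions was 15.7% and 17.3% in shScr and 12.7% and 14.1% in shTet3, a difference of −3.11 points with groups that did not overlap (two-sided exact permutation test, p = 0.33). Weighted by reads, the difference was only −0.407 points. Between the genes the mean level was 23.5% and 30.1% in shScr and 19.5% and 20.3% in shTet3, a difference of −6.87 points, again without overlap (p = 0.33 in the same exact test). There, 35 of 276 CpGs (12.7%) were hypo-DMPs, close to the share in the series. Without shScr replicate 2 the differences were −2.03 and −3.80 points and the counts 7 and 15, with 5.79% of all tested CpGs called.

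Taking the cluster as a whole, 45 of 433 tested CpGs (10.4%) were hypo-DMPs, and at 36 of the 45 the groups did not overlap. Among all 433, both replicates of shTet3 were lower at 88 CpGs (20.3%, against the 26.3% of the series). Both were higher at 13 of the 433, against 2.04% of the series (13546 of 662455). Of these 13, 8 were among the 116 gene-region CpGs below 10% in shScr. Another 4 were among the 145 such CpGs between the genes. Over the series 10570 of 358288 such CpGs had both values higher. At levels this low a few calls can set the order, and the difference in shares was not tested. The pooled differences of the 45 hypo-DMPs ran from −12.3 to −41.4 points. No hyper-DMP was called, and 1 CpG was higher at an unadjusted p under 0.05. The overdispersion-corrected F test, which takes the spread between replicates into account, called none in either direction after adjustment, here or anywhere in the series, with 7 CpGs of the cluster lower at an unadjusted p under 0.05. The count of hypo-DMPs changed with the library left out, in the cluster and in the series. The mean difference of the cluster was −5.51 points, against −6.94 over all CpGs. It was −3.16 without shScr replicate 2 (all CpGs −4.43) and −4.85 without shTet3 replicate 1 (−6.87). It was −5.99 without shTet3 replicate 2 (−7.06) and −7.53 without shScr replicate 1 (−9.34).

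The share of hypo-DMPs was higher among CpGs with a high level in shScr. Of the CpGs above 40% in shScr, 33 of 92 between the genes (35.9%) and 9 of 30 in gene regions (30%) were hypo-DMPs, against 35.7% of all such CpGs in the series. Their mean difference was −17.3 points between the genes, −13.4 points in gene regions and −17.3 points over the series. Of the CpGs below 10% in shScr, 145 between the genes and 116 in gene regions, none was a hypo-DMP. A call needs a drop of more than 10 points, so nearly none could be called there (0.00614% over the series), and this 0 shows nothing. Without shScr replicate 2 the counts above 40% were 13 of 92 and 5 of 32, against 13.9% of all such CpGs. Without shTet3 replicate 1 they were 19 and 6, against 22.4%, and without shTet3 replicate 2 they were 22 and 9, against 25.1%. Without shScr replicate 1 they were 41 of 95 and 14 of 30, against 41.8%. These classes use the shScr libraries of the same comparison, so the values are a description. The 22 CpGs of Hist1h2aa and Hist1h2ba lay above the mean of all CpGs over 40% by 6.14 and 6.88 points in shScr and by 9.03 and 13.4 points in shTet3, a change of 4.70 points (two-sided exact permutation test, p = 0.33). It was 2.53 points without shTet3 replicate 2 and 4.33 to 6.88 points without each other library.

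**Figure D4:**
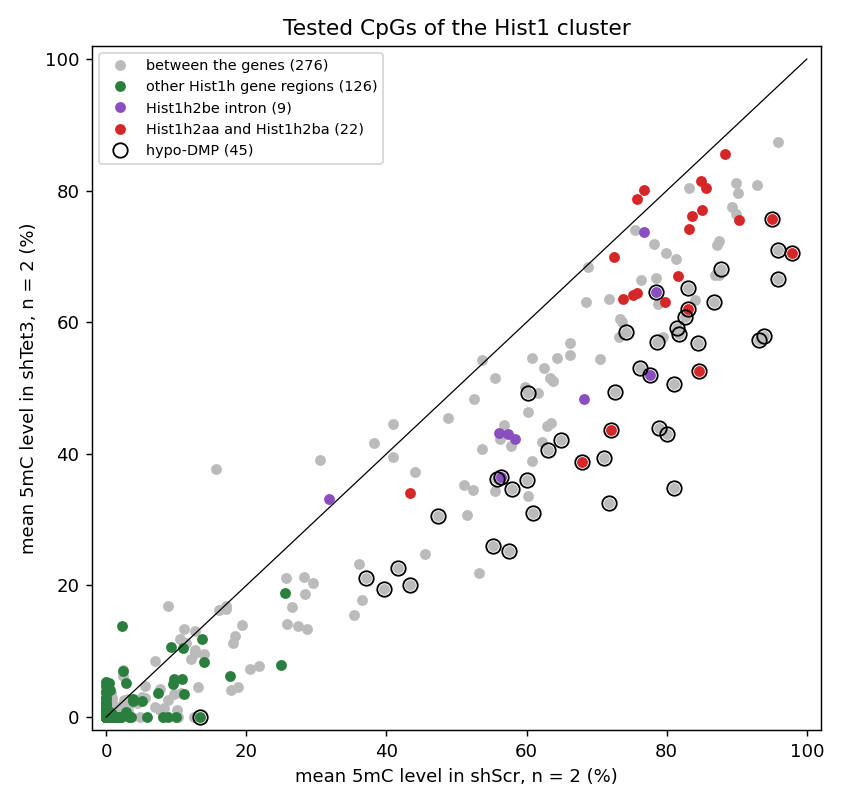
Mean 5mC level (%) of each of the 433 tested CpGs of the cluster in shScr (horizontal) and shTet3 (vertical), each over 2 oxBS libraries, with the diagonal of equal levels. Rings mark the 45 hypo-DMPs, all of which lie below the diagonal. Of the 126 CpGs of the other Hist1h gene regions, 116 are below 10% in shScr and 121 in shTet3.

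The hypo-DMPs with the largest differences lay between the histone genes. At chr13:23437116 the level was 69.4% and 92.9% in shScr against 36.4% and 33.3% in shTet3 (*q* = 1.14e-06). At chr13:22768173 it was 68.4% and 75% against 34.6% and 30.6% (*q* = 0.000616), and at chr13:23815474 it was 87.8% and 100% against 51.5% and 64.3% (*q* = 0.000234). In the oxBS libraries the groups did not overlap at any of the 3, although shTet3 replicate 2 had only 14 calls at the last. In the BS libraries the groups overlapped at chr13:23437116, with 63.8% and 50% in shScr against 23.1% and 73.9% in shTet3.

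The 2 remaining ones were in genes that stand among the histone genes. One, at chr13:22073776, is in a coding exon of Pom121l2 (82.8% and 75% against 40% and 47.8%, *q* = 0.000251). The other, at chr13:23902441, is in an intron of Slc17a2, a member of the phosphate transporter family (81.8% and 78.3% against 50% and 36.1%, *q* = 0.00276). The 8 CpGs of Slc17a2 averaged 68.4% and 77.8% in shScr against 53.2% and 49.6% in shTet3, and 4 of them were hypo-DMPs, with none called without shScr replicate 2 and 1 without shTet3 replicate 2. Of these 5 largest hypo-DMPs, 4 could be tested in the BS libraries and 1, at chr13:22768173, was called there. Of the 5, 3 were called without shScr replicate 2 and 3 without shTet3 replicate 2. Of the 48 other protein-coding genes within the cluster's span, 9 had listed CpGs. Genes for vomeronasal receptors, which detect pheromones, made up 33 of the 48, and none had a listed CpG.

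BS and oxBS libraries of the same replicate were then compared, since a CpG with 5hmC should read higher in BS. Over the cluster the mean BS minus oxBS level was −0.666 and 0.467 points in shScr replicates 1 and 2 (−0.0994 ± 0.801, SD, n = 2) and −0.186 and 0.144 points in shTet3 (−0.0208 ± 0.233, SD, n = 2). Both signs occurred in each group, so 5hmC was not detectable as a mean over the cluster at this depth. In the pair Hist1h2aa and Hist1h2ba the BS level was below the oxBS level in each replicate, with differences of −0.0537 to −1.27 points.

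Single CpGs gave the same picture. In shScr 1 of 425 CpGs (0.235%) was called with BS above oxBS, against 0.33% of all tested CpGs, and none with BS below oxBS, against 0.170%. In shTet3 no CpG of 443 was called in either direction, against 0.0239% above and 0.0141% below in the series, whereas 13 were above and 11 below at an unadjusted p under 0.05. The F test called none in either group.

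The 1 CpG called in shScr lies between the genes at chr13:22128636, downstream of the H2B gene Hist1h2bk, in this stretch of chr13:22128616-22128657 (plus strand, the CpG in capitals).
CpG 22128636: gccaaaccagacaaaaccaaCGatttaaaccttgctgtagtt
Its level was 33.0% and 32.2% in the BS libraries of shScr against 6.25% and 16.5% in the oxBS libraries, with coverages of 87 to 97 (difference 21.2 points, *q* = 0.000492). In shTet3 the BS libraries read 12.6% and 17.4% and the oxBS libraries 13.4% and 9.09%. The BS level was therefore higher in shScr than in shTet3, while the oxBS levels overlapped. In shScr replicate 2 alone the CpG was not called, and the difference between the groups in BS minus oxBS was not tested.

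**Figure D5:**
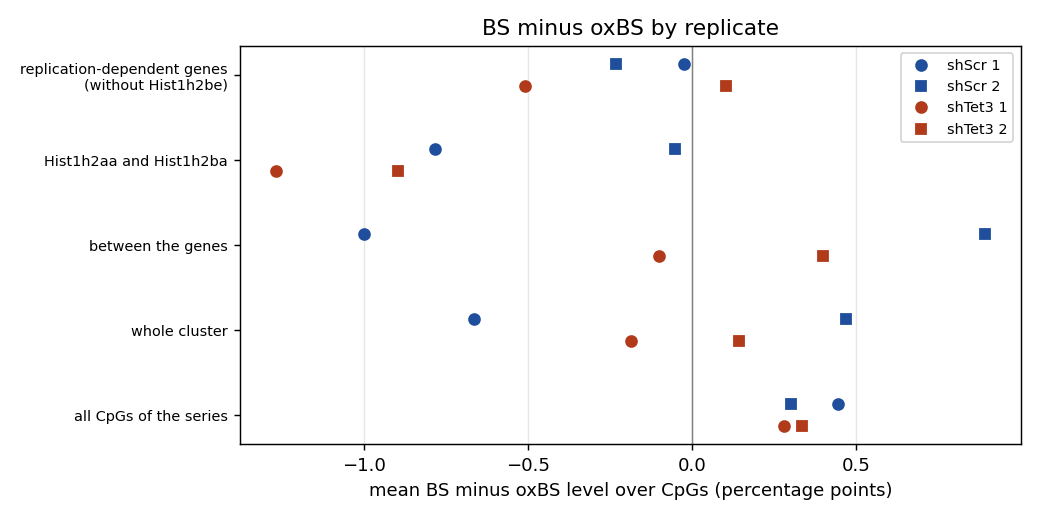
Mean BS minus oxBS level in percentage points for sets of CpGs of the cluster and for all CpGs, by shRNA (blue shScr, red shTet3) and replicate (circles 1, squares 2). The cluster's values scatter around 0, from −0.666 to 0.467, and those of all CpGs lie between 0.281 and 0.444.

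The BS libraries, taken to be made from the same DNA, repeated the comparison of both shRNAs. Hist1h2aa and Hist1h2ba averaged 73.0% and 85.8% in shScr against 63.5% and 68.8% in shTet3. The pair held 7 hypo-DMPs among 22 CpGs (31.8%), against 13.8% in the series. All 22 were above 40% in the shScr oxBS libraries. Among all such CpGs of the series the share was higher, with 84543 of 234130 tested in BS called. Of the 6 oxBS hypo-DMPs of the pair, 3 were also called in BS, at chr13:24025863, chr13:24026436 and chr13:24026544. The cluster held 49 hypo-DMPs among 443 tested CpGs and no hyper-DMP, against 0.0621% of the series. Of its 45 oxBS hypo-DMPs, 24 were also called in BS and 43 were lower in shTet3 there. Without shScr replicate 2 the BS difference was −2.65 points in the cluster and −6.82 in the pair, against −4.47 over all CpGs. Without shTet3 replicate 1 it was −4.54 and −10.6, against −6.64. Without shTet3 replicate 2 it was −5.89 and −15.9, against −6.94. Without shScr replicate 1 it was −8.14 and −19.7, against −9.09.

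The promoters of the Hist1h genes were searched for letters of known histone promoter elements. In the 250 bases before the start site, CCAAT occurred on either strand in 46 of 55 genes (83.6%) against 35.0% of 22367 promoters, TATAAA in 26 (47.3%) against 12.3%, and the octamer ATTTGCAT in 11 (20%) against 1.62%. Divergent neighbours can share a window, as Hist1h2ac and Hist1h2bc do, so a motif may be counted for both genes and the counts are not independent. The octamer is known as the element through which OCT1 acts on H2B promoters. These windows held a median of 9 CpGs, against 8 over all genes.

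Histone genes outside the cluster gave a comparison. Of 12 Hist2, Hist3 and Hist4 genes, 10 were tested, 6 of which were below 10% in shScr, and only Hist3h2ba, an H2B gene, had a hypo-DMP (23.7% and 23.4% in shScr against 9.14% and 19.5% in shTet3 over 7 CpGs). Of 10 genes for histone variants, 6 were below 10% and 3 had hypo-DMPs, which were H2afy and H2afy2 for macroH2A with 9 and 4 and Cenpa for the centromeric H3 with 1. H1foo, the oocyte linker histone, was at 72.5% and 82.0% in shScr and 73.7% and 60.3% in shTet3 over 3 CpGs. Its groups overlapped and no CpG was called, whereas the BS libraries gave 79.5% and 90.6% against 70.6% and 62.8%, without overlap and with 2 of the 3 CpGs called lower.

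Regulators of histone mRNA gave 3 of 6 genes below 10%. Lsm10, of the U7 snRNP that cuts the 3′ end of histone mRNAs, had 7 hypo-DMPs among 11 CpGs with 68.8% and 84.8% in shScr against 58.1% and 65.5% in shTet3. Slbp, for the stem-loop binding protein, and Casp8ap2 had 1 each, and Npat, the S-phase activator of histone genes, was between 0.0116% and 0.318%. The share of hypo-DMPs was 1.22% of 82 CpGs in the Hist2, Hist3 and Hist4 genes, 3.24% of 432 in the variants and 4.86% of 185 in the regulators. Each was below the 13.9% of the series. CpGs below 10% in shScr, where a call is nearly impossible, made up 78%, 85% and 89.2% of these lists, against 54.1% of the series. Shares at a matched level were not computed for these lists. Without shScr replicate 2 1, 4 and 2 CpGs of these lists were hypo-DMPs, against 5.79% of the series, 2 of them in Lsm10 and 2 in H2afy. The mean differences of these lists without shTet3 replicate 1 were −0.916, −1.72 and −1.26 points, against −6.87 over all CpGs. Without shTet3 replicate 2 they were −2.81, −1.91 and −1.75, against −7.06. Without shScr replicate 1 they were −3.08, −2.59 and −2.52, against −9.34. No gene of these lists had a hyper-DMP.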

How the data were processed

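oxRRBS libraries of NPCs were grouped by the shRNA, library type and replicate number in their labels. According to the methods, the authors trimmed reads with Trim Galore in RRBS mode, aligned them with Bismark and deposited for each CpG a read count (its coverage) with the percent that stayed C, unnormalized. All 757812 listed positions were the C of a CpG in NCBIM37 (mm9). Methylated calls were recovered as percent times coverage, which gave whole numbers (within 0.01 calls) at 100% of the values. Levels are unweighted means over CpGs. The study names methylKit; its logistic regression was computed directly from the calls of 2 libraries against 2 (SciPy 1.17.1, NumPy 2.4.6, pandas 2.3.3) and was tested on simulated data.

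The CpGs named are those of the testis genes, of each gene with a DMP and of the best covered gene of each family, the 5 largest hypo-DMPs, and each call of BS above oxBS. Other genes of the span are named if they hold at least 3 DMPs. Members, lists and rules were chosen with earlier results of these data known. BS and oxBS libraries of 1 number were taken to come from the same DNA, and their replicate deviations correlated over CpGs (r = 0.508 in shScr and 0.246 in shTet3). Sequences are those of the mm9 genome. Alternatives were coverage minimums of 5 and 20, a limit at the 99.9th percentile of coverage, an F test, a replicate block, Storey's *q*, both replicates beyond both, BS libraries, 2 kb upstream, read-weighted levels and leaving out each replicate. Leaving out replicates in the BS libraries, the CpGs above 40%, the flanking genes and the other histone genes was chosen after seeing the data.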

Additional observations from a re-analysis of the deposited data

How the results depend on the processing

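Of 173 alternative values, 153 kept their count (within 1.5 times) or moved by less than 1 SD between replicates, some of them because the alternative could not change the value. Mean 5mC in the gene regions, between the genes and in the testis genes was lower in shTet3 in the 28 alternatives that changed the value. The other 7, among them the replicate block and the limit on high coverage, left it as it was and bear on nothing. The overdispersion-corrected F test gave 0 hypo-DMPs in the cluster and 0 CpGs with BS above oxBS in shScr. Leaving out 1 library gave 22 to 65 hypo-DMPs and 0 to 1 hyper-DMPs, differences of −3.81 to −2.03 points in gene regions and of −18.7 to −4.42 points in the testis genes, and 0 to 3 CpGs with BS above and 0 to 1 with BS below oxBS in shScr. Read-weighted levels, in which deeply covered CpGs count for more, gave −0.407 points in gene regions and −1.03 points for BS minus oxBS in shTet3. The difference turned in Hist1h2ba without shScr replicate 2 (2.33 points, range −16.8 to 2.33), and in Hist1h3d in the BS libraries (−3.17) and with 2 kb upstream (−0.942). For the remaining shifts the cause was not tested. In the labels, same-numbered shScr and shTet3 libraries have only a number in common. Their deviations did not correlate (r = −0.0361), which cannot show whether the cultures were run as pairs. The replicate block gave 47 hypo-DMPs in oxBS and 51 in BS (49 without the block). It gave no hyper-DMP in either and the same counts of BS against oxBS. Without the 51 tested CpGs under read ends with fewer than 3 differences from another copy, an alternative chosen after seeing the data, 44 hypo-DMPs remained and the testis genes differed by −15.4 points. Genes without listed CpGs could not be measured, and 2 libraries per group leave each exact permutation test of a mean with p = 0.33 at best.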
